A study of Mus musculus with 16 samples.

Results

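Adrenergic signalling in the ventricle was followed through 9 genes, taken by their symbols from the deposited count tables: the receptor genes Adrb1, Adra1a and Adra1b, the adenylyl cyclase genes Adcy5 and Adcy6, the receptor kinase gene Grk5, the protein kinase A subunit genes Prkaca and Prkar1a, and the phosphodiesterase gene Pde4d. Each symbol matched 1 of the 55487 genes counted; the rule names the genes and uses no measured value, though it was written with earlier results of these data known, and all 9 were among the 17813 genes tested. The samples came from hearts of untreated C57Bl/6J mice aged 24 months, 8 samples of multiparous mice with a history of more than 3 pregnancies and 8 of virgin mice. RNA was sequenced from the mid section of the left ventricle after the heart had been flushed with cold saline, 1 library per sample; the samples are called hearts here, although the labels do not state that each is a separate animal. Library names of the multiparous hearts carry the code MP in 4 cases and P in 4, of unstated meaning, and all virgin names carry AA, so parity and a difference tied to these codes cannot be told apart. The comparison asks whether past pregnancies leave a mark on the transcripts of this pathway in old hearts.

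As background, noradrenaline from sympathetic nerves acts on the myocyte through beta receptors, which couple through Gs to adenylyl cyclase, and through alpha1 receptors, which couple through Gq to phospholipase C. Cyclic AMP releases the catalytic subunits of protein kinase A from their regulatory subunits, and the kinase phosphorylates calcium channels, phospholamban and myofilament proteins, so that the heart beats faster and harder. G protein-coupled receptor kinases silence the occupied receptor, and phosphodiesterases remove cyclic AMP close to where it is made. Loss of beta1 receptors and a higher level of receptor kinases are known features of the failing heart.

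Gene counts per library ran between 34560606 and 58890976, apart from virgin 8 with 228325238. The member with the fewest reads, Adrb1, still had at least 906 counts in every library, so counting error was small beside the spread between libraries. The tissue label went with its markers: 10 cardiomyocyte genes summed to 66700 to 84550 CPM (read counts relative to the TMM-scaled library size) in multiparous and 62620 to 90470 CPM in virgin hearts (exact permutation p = 0.571, adjusted p = 0.676 over 13 marker lists). Among those 13 lists, 1 differed. All 16 kidney tubule genes had lower means in multiparous hearts, none of the 16 was at 0 in all libraries, and their sum was 2.09 to 17.3 CPM in multiparous against 6.42 to 107.6 CPM in virgin hearts (exact permutation p = 0.00155, adjusted p = 0.0202). The part of these transcripts in the results below was not tested beyond a fit with their sum as a covariate. As that sum differs between the groups, the fit cannot tell it apart from parity.

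No difference between multiparous and virgin hearts passed the test for any of the 9 genes, and the intervals were narrow. With edgeR's quasi-likelihood test, 0 of 9 had an adjusted p under 0.05, where 0.0112% of all genes tested did (2 of 17813), and 0 of 9 had an unadjusted p under 0.05, where 8.12% of all genes did, 4.04% higher and 4.09% lower. DESeq2 and limma voom also called 0 of 9. Of all 17813 genes DESeq2 called 61 higher and 67 lower, and limma voom 2 higher and 1 lower. Fold changes were small: the multiparous mean was the higher for 6 genes and the lower for 3, with log2 fold changes from −0.04 for Pde4d to 0.15 for Adrb1 and a median of 0.06, against −0.003 over all genes tested. The 95% intervals put a bound on what could have been missed. The widest reached from −9.69% to 22.7% (Adra1b) and the narrowest from −7.58% to 2.90% (Prkar1a). Over the 9 genes the highest upper end was 23.2% (Adrb1) and the lowest lower end −10.98% (Pde4d). In bulk tissue, fewer cells of a type and less RNA per cell cannot be told apart.

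**Figure D1:**
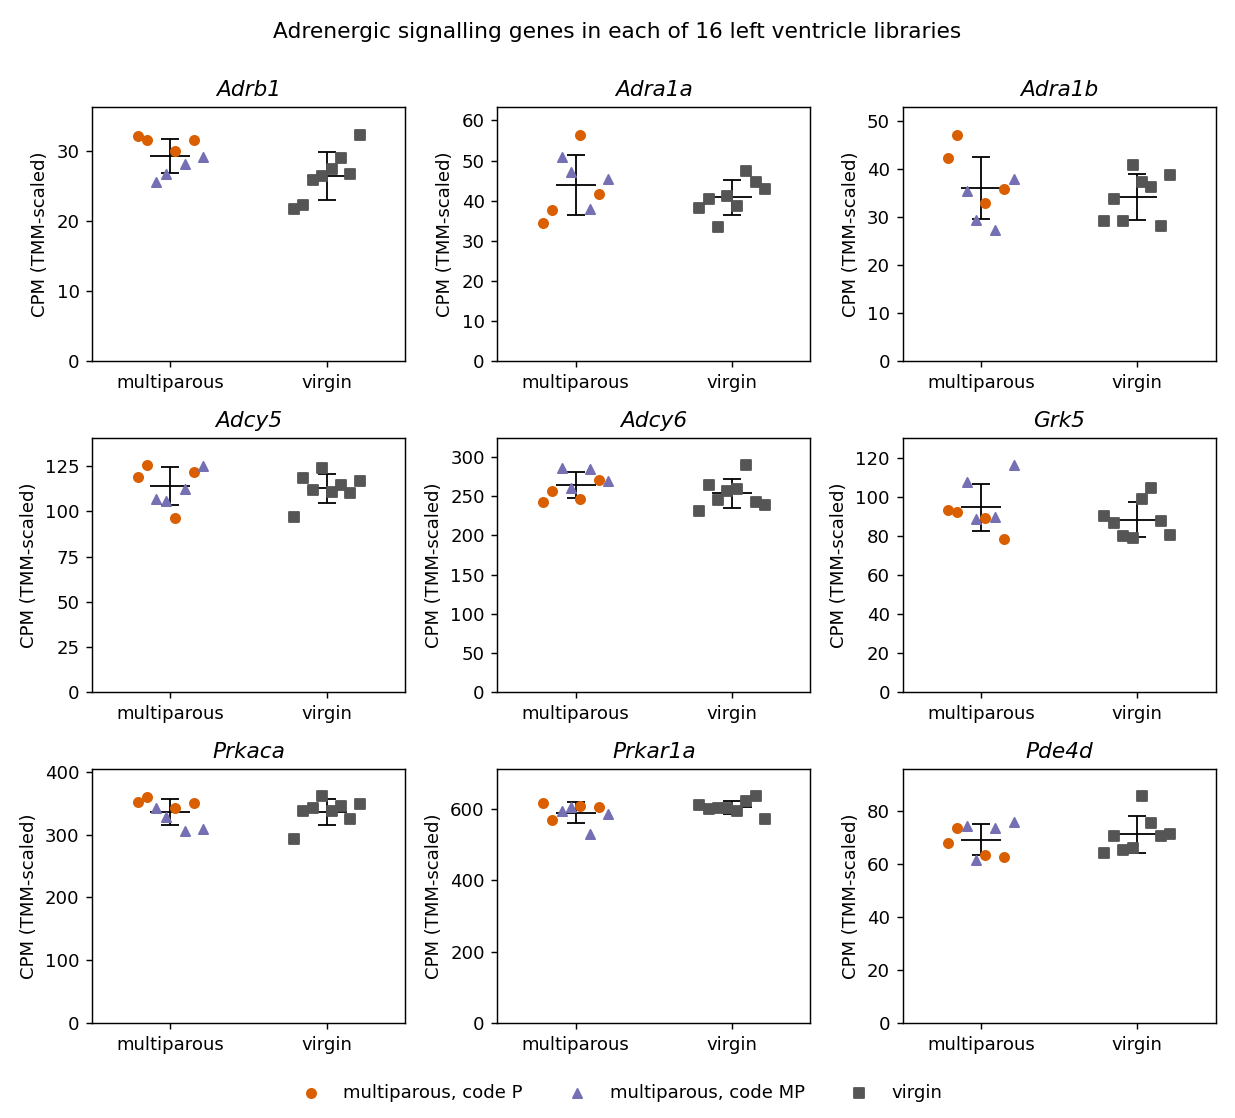
CPM of the 9 genes in each library, with mean and SD of 8 libraries per group (horizontal and vertical black bars); circles and triangles are multiparous libraries coded P and MP, squares are virgin libraries. The groups overlap in every panel, from Adrb1 at 25.6 to 32.2 CPM in multiparous hearts and 21.7 to 32.4 CPM in virgin hearts to Prkar1a at 528.6 to 617.8 CPM and 572.4 to 635.7 CPM.

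Per kilobase of exon, the members fell into 3 levels. The protein kinase A subunits stood highest, Prkar1a at 138 and Prkaca at 135 CPM per kb over the 16 libraries, and did not separate from each other (Prkar1a was the higher in 10 of 16 libraries). The cyclase Adcy6 followed at 38.2 CPM per kb, below both in every library. The other 6 lay between 15.8 and 4.86 CPM per kb in the order Adcy5, Grk5, Adra1b, Adrb1, Pde4d and Adra1a, and the ranges of each pair of neighbours among them overlapped. These per-length levels average over isoforms: Pde4d has 20 annotated transcripts spread over 1503514 bases of chromosome 13, and whole-gene counts do not separate them.

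Adrb1 encodes the beta1 receptor, the main target of noradrenaline on the ventricular myocyte. It lies on chromosome 19 at 56722199 to 56733113 (GRCm38, plus strand). Multiparous hearts had 25.6 CPM at the lowest, 29.7 at the median and 32.2 at the highest, and virgin hearts 21.7, 26.7 and 32.4 CPM. In 7 of 8 multiparous hearts the value lay above the virgin mean, but none exceeded the highest virgin heart, virgin 8. The means were 29.4 ± 2.4 CPM in multiparous hearts and 26.6 ± 3.4 CPM in virgin hearts (SD, n = 8 each), a log2 fold change of 0.15 (SE 0.07, 95% interval −0.01 to 0.30, edgeR adjusted p = 0.646). This was the largest difference among the 9 genes, and by its p it stood at rank 1716 of the 17813 genes tested. With the kidney marker sum as a covariate the log2 fold change was −0.0027, but that sum itself differs between the groups.

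In multiparous hearts the alpha1 receptors had the widest spread of the 9 genes. Adra1a encodes the alpha1A receptor (chromosome 14, 66635251 to 66771168, plus strand) and Adra1b the alpha1B receptor (chromosome 11, 43774606 to 43901210, minus strand); both act through Gq. Adra1a had 34.5, 43.6 and 56.5 CPM (lowest, median and highest) in multiparous and 33.4, 40.8 and 47.4 CPM in virgin hearts. Adra1b had 27.3, 35.5 and 47.1 CPM in multiparous hearts and 28.2, 34.98 and 40.9 CPM in virgin hearts. For each receptor 2 multiparous hearts lay above every virgin heart, multiparous 3 and 5 for Adra1a and multiparous 1 and 2 for Adra1b. The log2 fold changes were 0.11 (SE 0.09, edgeR adjusted p = 0.828) for Adra1a and 0.07 (SE 0.11, edgeR adjusted p = 0.911) for Adra1b. Single libraries moved both: Adra1a was at 0.046 without multiparous 5 and 0.069 without virgin 3, and Adra1b at 0.0093 without multiparous 2, 0.038 without multiparous 1 and 0.12 without multiparous 6. With the kidney marker sum as a covariate Adra1b was at −0.14. The coefficient of variation between libraries was 16.9% in multiparous and 10.5% in virgin hearts for Adra1a and 18.0% and 14.3% for Adra1b; the difference in spread was not tested.

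Set beside the other adrenergic receptors per kilobase, these 3 made up most of the family. Adra1b held 36.1 ± 4.1% of the summed per-length level in multiparous and 36.8 ± 2.8% in virgin hearts, Adrb1 29.7 ± 2.3% and 28.6 ± 2.0%, and Adra1a 17.3 ± 3.1% and 17.2 ± 1.9% (SD, n = 8 each). Adra1d, the alpha1D receptor, followed with 8.68 ± 1.7% in multiparous and 9.20 ± 2.0% in virgin hearts. Adrb3, the beta receptor of fat cells, and Adra2a, a presynaptic receptor, were under the filter on low counts and reached at most 0.251 and 0.146 CPM in any library. The ratio of Adrb1 to Adra1b per kilobase was 0.834 ± 0.12 in multiparous and 0.785 ± 0.106 in virgin hearts, with ranges of 0.672 to 1.03 and 0.648 to 0.951 that overlapped over most of their length.

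Adcy5 and Adcy6 encode the calcium-inhibited adenylyl cyclases of the myocyte, which make cyclic AMP when Gs is active. Adcy5 lies on chromosome 16 (35154877 to 35305738, plus strand) and Adcy6 on chromosome 15 (98589973 to 98610076, minus strand). Adcy5 had 96.5, 115.7 and 125.4 CPM (lowest, median and highest) in multiparous and 96.7, 113.1 and 124.1 CPM in virgin hearts, and its groups covered nearly the same range. Adcy6 had 242.7, 264.7 and 285.6 CPM in multiparous hearts and 230.8, 251.6 and 289.6 CPM in virgin hearts, with 6 of 8 multiparous hearts above the virgin mean. Neither difference passed: the log2 fold change was 0.02 (SE 0.06, edgeR adjusted p = 0.972) for Adcy5 and 0.06 (SE 0.05, edgeR adjusted p = 0.805) for Adcy6, which was at 0.12 with the kidney covariate. Of the 6782 exonic bases of Adcy6, 605 lie opposite the antisense gene Gm29331, which averaged 0.0046 CPM.

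Among the 10 adenylyl cyclase genes, Adcy6 held 51.5 ± 1.6% of the per-length sum in multiparous and 51.5 ± 1.4% in virgin hearts, and Adcy5 20.97 ± 1.6% and 21.6 ± 1.3% (SD, n = 8 each). Adcy9 came next at 12.3 ± 0.8% and 11.5 ± 0.4%, then Adcy4, Adcy7 and Adcy3. The ratio of Adcy5 to Adcy6 per kilobase was 0.409 ± 0.044 in multiparous and 0.421 ± 0.030 in virgin hearts. The plot of family levels shows these shares beside those of the kinases and phosphodiesterases.

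**Figure D2:**
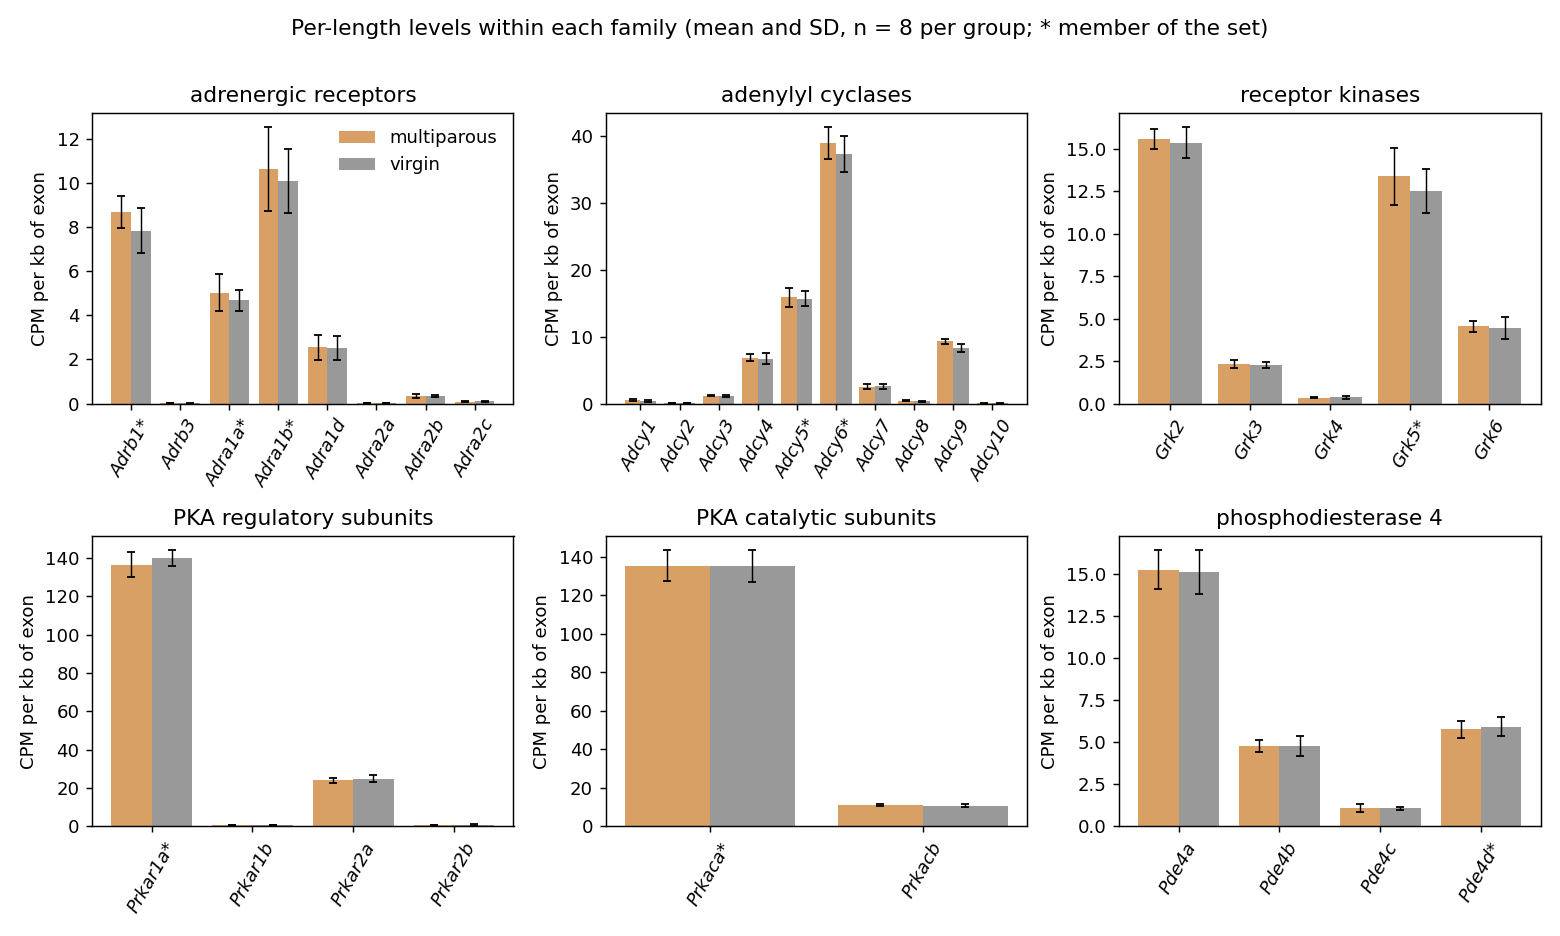
Mean level per kilobase of exon in CPM per kb, with SD of 8 libraries, in multiparous (left bar, tan) and virgin (right bar, grey) hearts, for genes of 6 families; an asterisk marks the 9 members. Adra1b and Adrb1 lead the receptors, Adcy6 the cyclases (39.0 and 37.4 CPM per kb), Prkar1a and Prkaca their subunit classes, while Grk5 stands below Grk2 and Pde4d below Pde4a.

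Grk5 encodes G protein-coupled receptor kinase 5, a membrane-bound kinase that phosphorylates occupied receptors and can enter the nucleus of myocytes (chromosome 19, 60889749 to 61095968, plus strand). It had 78.6, 91.1 and 116 CPM (lowest, median and highest) in multiparous and 79.0, 87.1 and 104.2 CPM in virgin hearts. In 7 of 8 multiparous hearts it lay above the virgin mean, by little in most: multiparous 3 and 8, at 107.7 and 116 CPM, were the 2 above every virgin heart. The log2 fold change was 0.10 (SE 0.07, 95% interval −0.06 to 0.25, edgeR adjusted p = 0.798), and 0.05 without multiparous 8. Per kilobase, Grk5 held 36.9 ± 3.0% of the 5 receptor kinases in multiparous and 35.8 ± 2.5% in virgin hearts, second to Grk2 at 43.1 ± 2.2% and 44.0 ± 2.2% (SD, n = 8 each).

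Protein kinase A showed the steadiest members. Prkaca encodes the alpha catalytic subunit (chromosome 8, 83972993 to 83996443, plus strand) and Prkar1a the type I alpha regulatory subunit that holds it inactive (chromosome 11, 109649405 to 109669656, plus strand). Prkaca had 305.8, 342.7 and 359.6 CPM (lowest, median and highest) in multiparous and 292.5, 340.6 and 361.6 CPM in virgin hearts. Its means were 336.4 ± 20.1 and 336.5 ± 20.7 CPM (SD, n = 8 each), a log2 fold change of −0.0003 (SE 0.05, edgeR adjusted p = 1.00, 95% interval −0.10 to 0.10), and the sign of so small a value turned with the scaling. Prkar1a had 528.6, 599.2 and 617.8 CPM in multiparous hearts and 572.4, 601.4 and 635.7 CPM in virgin hearts, with multiparous 2 and 6 below every virgin heart. Its log2 fold change was −0.04 (SE 0.04, edgeR adjusted p = 0.852), and −0.015 without multiparous 6. Between libraries Prkar1a varied by 4.87% in multiparous and 3.12% in virgin hearts (coefficient of variation), less than any other member in both groups.

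Within their classes both subunits held most of the per-length sum. Prkaca held 92.5 ± 0.5% of the catalytic per-length sum with Prkacb in multiparous and 92.6 ± 0.3% in virgin hearts. This share rests on 2488 exonic bases for Prkaca and 8772 for Prkacb, which had means of 96.0 and 94.7 CPM in multiparous and virgin hearts. Prkar1a held 84.3 ± 0.9% of the 4 regulatory subunits in multiparous and 84.2 ± 1.0% in virgin hearts, with Prkar2a, the type II alpha subunit, at 14.8 ± 0.9% and 15 ± 1.1% (SD, n = 8 each). The ratio of Prkar1a to Prkaca per kilobase was 1.01 ± 0.05 in multiparous and 1.04 ± 0.09 in virgin hearts.

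The nuclear output of the pathway is the factor CREB, which protein kinase A phosphorylates and which binds the cyclic AMP response element. The letters of that element were looked for, on both strands, in the 250 bases before each annotated start (RefSeq, GRCm38.p6) for the 7 members present in the promoter table, which left out Adra1a and Adcy6. The full element TGACGTCA was found for 1 of 7 members, Prkar1a, against 1.77% of 27025 genes, and the shorter TGACG, which the full element also holds, for 3 of 7 (Adrb1, Prkaca and Prkar1a), against 19.8% of genes. A gene counted if any of its starts had a match, and the number of starts differed. Prkar1a had 6, Prkaca and Adra1b 2 each and the other members 1 each, while the 27025 genes had 32851. Counted by start, the shares over all genes were 1.55% and 17.8%. The stretches below show the full element and 1 shorter match for each of the other genes, with the match in capitals, on the plus strand; in Prkaca it reads on the minus strand. A match is a description of these letters, and the expression of all 3 genes overlapped between groups as given above.
Prkar1a, chr11:109650889-109650918: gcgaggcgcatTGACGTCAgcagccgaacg
Adrb1, chr19:56722016-56722042: ctgcgggagccTGACGcgcggccccgg
Prkaca, chr8:83972847-83972873: tctgcaactcgCGTCActcatccagga
The match of Prkar1a ends 42 bases before 1 of its 6 RefSeq starts. That of Adrb1 ends 86 bases before its RefSeq start and that of Prkaca 116 bases before 1 of its 2. These starts need not be the gene starts given above, which are from GENCODE M21.

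Pde4d encodes a phosphodiesterase that degrades cyclic AMP close to the beta receptors and the sarcoplasmic reticulum (chromosome 13, 108449948 to 109953461, plus strand). It had 61.6, 70.8 and 76.0 CPM (lowest, median and highest) in multiparous and 64.0, 70.6 and 85.6 CPM in virgin hearts. The medians nearly coincided; multiparous 4, 5 and 7 lay below every virgin heart and virgin 5 above every multiparous one. The log2 fold change was −0.04 (SE 0.06, 95% interval −0.17 to 0.09, edgeR adjusted p = 0.919), and it turned to 0.0027 without virgin 5. Among the 4 Pde4 genes it held 21.4 ± 0.6% of the per-length sum in multiparous and 22.03 ± 1.2% in virgin hearts, behind Pde4a at 56.7 ± 1.5% and 56.2 ± 2.4% (SD, n = 8 each).

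The multiparous hearts were then read by library code. In a fit with 3 levels, 0 of 9 members differed between MP-coded and P-coded hearts at an adjusted p under 0.05, where 0.0112% of all genes did, and 1, Prkaca, had an unadjusted p under 0.05, where 9.18% of all genes did. Adrb1 was the member whose codes did not overlap. It had 25.6, 26.7, 28.2 and 29.3 CPM in the MP-coded and 30.1, 31.7, 31.7 and 32.2 CPM in the P-coded hearts, a log2 fold change of −0.19 for MP against P (SE 0.10, edgeR adjusted p = 0.559); 5.96% of all genes were without overlap in this way. Prkaca had 305.8 to 342.9 CPM in MP-coded and 342.5 to 359.6 CPM in P-coded hearts, which overlapped by 1 library on each side (log2 fold change −0.13 with an SE of 0.06 and an edgeR adjusted p of 0.533).

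Against virgin hearts, 0 of 9 members passed with either code. In the P-coded comparison 0.298% of all genes had an adjusted p under 0.05, and in the MP-coded one 0.00561%. Unadjusted p-values under 0.05 fell to Adrb1 in the P-coded hearts, 1 of 9 against 8.21% of all genes, and to Grk5 and Adcy6 in the MP-coded ones, 2 of 9 against 9.40%. Adrb1 had a log2 fold change of 0.24 (SE 0.08, edgeR adjusted p = 0.421) in P-coded hearts and 0.05 (SE 0.08) in MP-coded ones. Grk5 had 0.19 (SE 0.08, edgeR adjusted p = 0.498) in MP-coded hearts and 0.00 (SE 0.08) in P-coded ones, and Adcy6 0.12 (SE 0.06, edgeR adjusted p = 0.525) and 0.00 (SE 0.06). Both comparisons share the 8 virgin libraries. Adra1b was at 0.21 (SE 0.12) in P-coded and −0.08 (SE 0.12) in MP-coded hearts.

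**Figure D3:**
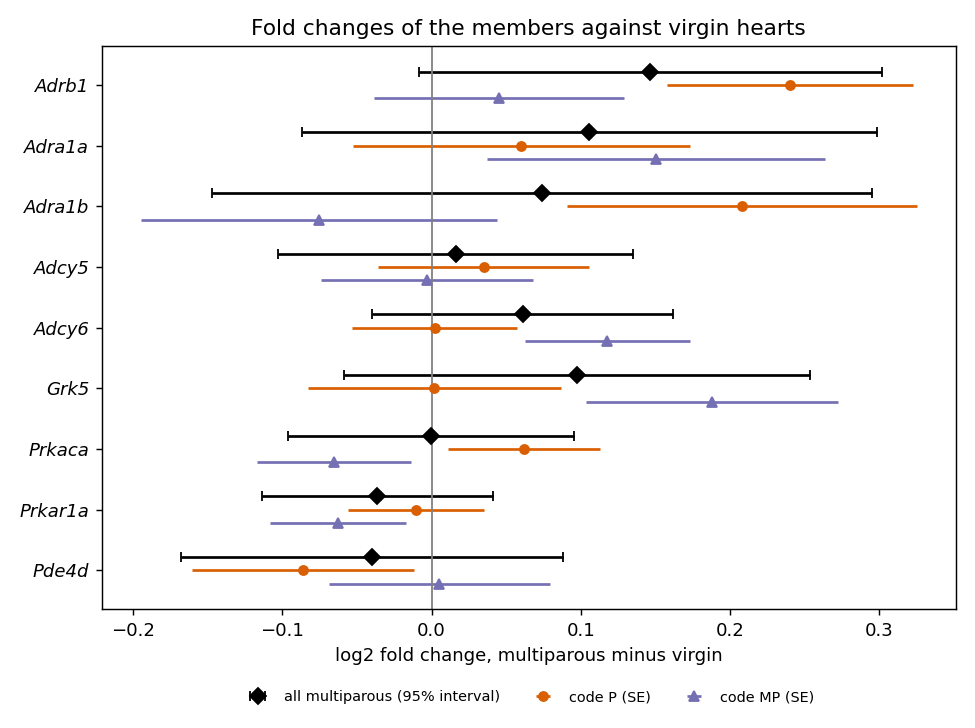
Log2 fold change against virgin hearts (x axis) of each member, for all 8 multiparous hearts (black diamonds, bars are 95% intervals), the 4 P-coded (orange circles) and the 4 MP-coded hearts (purple triangles; bars are SE). Every 95% interval crosses 0, with Adrb1 at 0.15 the farthest from it.

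Relations between the members were read across the 16 libraries. Of the 36 pairs of members, 24 had a positive and 12 a negative Pearson r of log2 CPM, from −0.37 to 0.66 with a median of 0.09, and none passed after adjustment over 54 relations, which include each member against the cardiomyocyte marker sum and the share of reads assigned to no gene. The highest was Adra1b with Prkaca (Pearson r = 0.66, permutation p = 0.00446, adjusted p = 0.201; Spearman rho = 0.75, permutation p = 0.00126, adjusted p = 0.068; n = 16). It was 0.54 without the 2 libraries farthest from the median of Adra1b, 0.66 within multiparous and 0.70 within virgin hearts. Adra1b with Adcy5 had r = 0.63 (permutation p = 0.00859, adjusted p = 0.201; rho = 0.71, permutation p = 0.00301, adjusted p = 0.0813) and 0.63 without the 2 libraries farthest from the median. Grk5 with Pde4d had r = 0.61 (permutation p = 0.0112, adjusted p = 0.201; rho = 0.68, permutation p = 0.00462, adjusted p = 0.0832) and 0.58 without the 2 libraries farthest from the median. Within the virgin group, virgin 1 had the lowest value of 5 of the 9 members (Adrb1, Adcy5, Adcy6, Prkaca and Pde4d), and a part of it in these relations was not tested. With 4 libraries each, the P and MP codes were too few for values of their own.

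**Figure D4:**
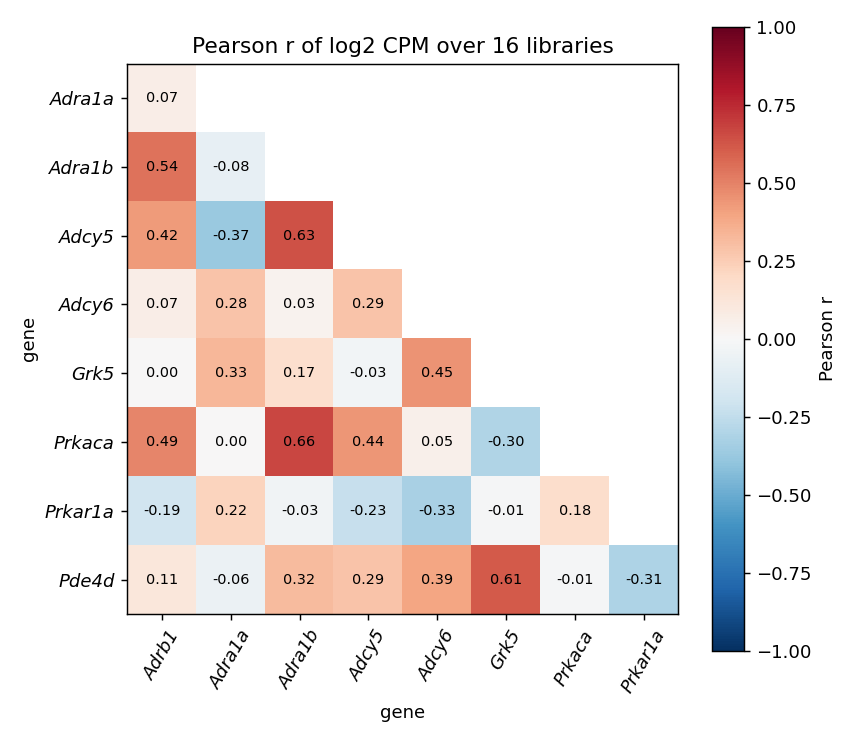
Pearson r of log2 CPM between each pair of the 9 members over 16 libraries; red is positive and blue negative, and the number in each cell is r. Adra1b with Prkaca (0.66) and with Adcy5 (0.63) are the highest, and Adra1a with Adcy5 (−0.37) is the lowest.

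The genes whose levels followed a member most closely were found over the 8445 genes with a mean of at least 10 CPM, after each group's mean had been subtracted, as a description of these 16 libraries. Pde4d had the closest partner, Fhl1 (Pearson r = 0.94), a LIM domain protein of the sarcomere, and after it Amd1 (0.85). Adra1a went with Ubxn1 (0.91) and Upf2 (0.90), Prkaca with Ppargc1b (0.90), a coactivator of mitochondrial genes, and Ror1 (0.89), and Adcy6 with Car14 (0.89), a membrane carbonic anhydrase, and Pttg1ip (0.84). Adra1b went with Mif4gd and Hhatl (0.87 each), Adcy5 with Tmem94 (0.86) and Slc29a1 (0.82), Grk5 with Nudt4 (0.85) and Rock2 (0.83), and Prkar1a with Bcl7a (0.83) and Ylpm1 (0.78). Adrb1 had the loosest, Magi3 (0.76), a scaffold protein with PDZ domains, and Tle5 (0.75). No member was among the partners of another, which says little, as only the closest of 8445 genes were kept.

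The rest of the pathway was read through 13 lists of 130 genes, of which 126 were tested. None had an adjusted p under 0.05 in edgeR, DESeq2 or limma voom, where 0.0112% of all genes did in edgeR. Of all 17813 genes DESeq2 called 61 higher and 67 lower, and limma voom 2 and 1. At an unadjusted p under 0.05 stood 12 of 126, 11 higher and 1 lower in multiparous hearts, which is 9.52% against 8.12% of all genes. Over all genes these p-values were split evenly, 4.04% higher and 4.09% lower. Over the 126 genes 66 had higher and 60 lower means, where 48.6% of all genes were higher, and the median log2 fold change was 0.007. The list medians ran from −0.06 for the other cyclic AMP effectors to 0.15 for the other adenylyl cyclases.

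**Figure D5:**
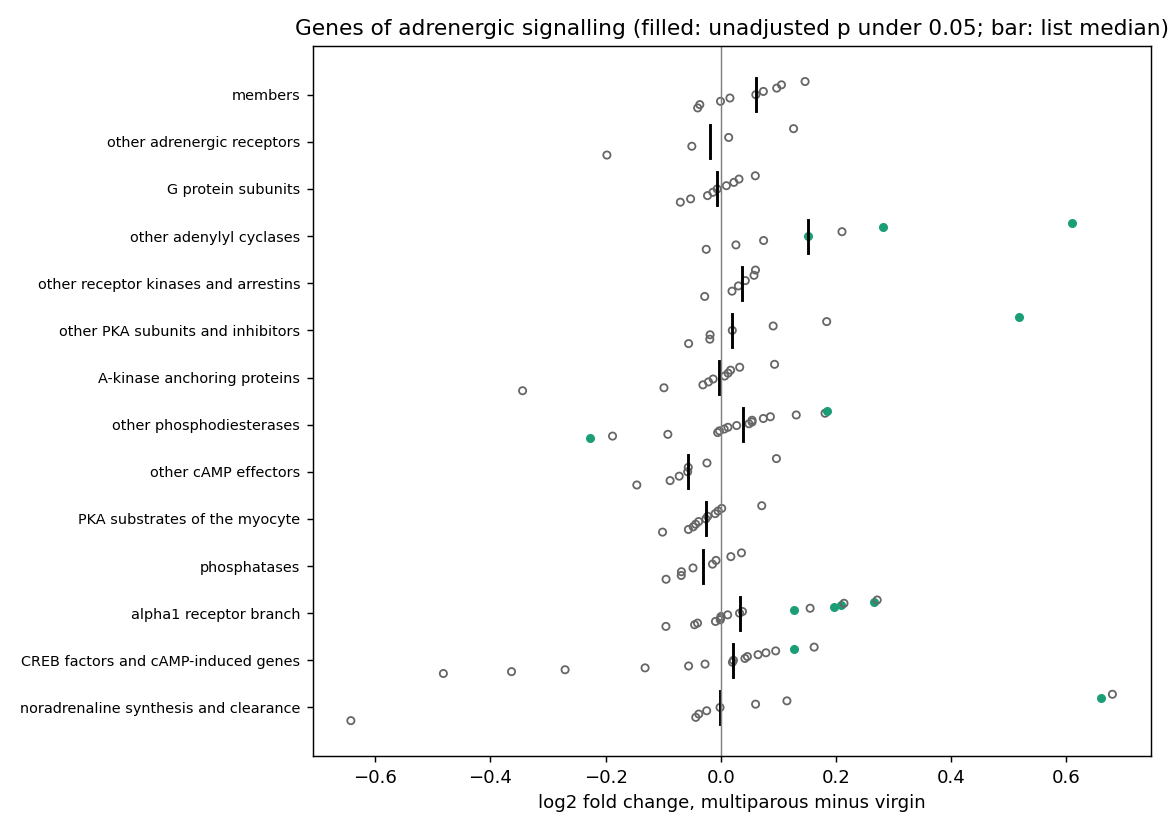
Log2 fold change, multiparous minus virgin (x axis), of every tested gene in the set of 9 members and in 13 lists of adrenergic signalling; filled green points have an unadjusted p under 0.05 and black bars are list medians. The members lie between −0.04 and 0.15, and the other pathway genes between −0.64 and 0.68.

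Of the 7 other cyclases tested, 6 had higher means, where 48.6% of all genes did, and 3 were higher at an unadjusted p under 0.05, where 4.04% of all genes were. Adcy9, a cyclase anchored beside the potassium channel of repolarisation, measured 48.3 ± 2.1 CPM in multiparous hearts and 43.5 ± 3.1 CPM in virgin hearts (SD, n = 8 each), above the virgin mean in 8 of 8 hearts and above every virgin heart in 6 (log2 fold change 0.15 with an SE of 0.04 and an edgeR adjusted p of 0.256). Adcy1, a calmodulin-stimulated cyclase, measured 6.596 ± 1.70 against 4.33 ± 1.71 CPM (edgeR adjusted p = 0.351). It passed, with Prkd1, when virgin 7 was left out, and neither passed otherwise.

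In the alpha1 branch 11 of 17 genes had higher means, 4 of them with an unadjusted p under 0.05; of all genes 48.6% had higher means and 4.04% were higher at that p. Plcb1, a phospholipase C isoform driven by Gq, measured 15.1 ± 1.5 CPM in multiparous hearts and 13.1 ± 0.7 CPM in virgin hearts (adjusted p = 0.236 by edgeR), with 6 multiparous hearts above every virgin one. Of the other isoforms listed, Plcb2 had a log2 fold change of 0.27 and Plcb3 of −0.009. Plcb4, the isoform with the highest CPM, measured 78.3 against 78.4 CPM. Prkd1, protein kinase D, a kinase downstream of protein kinase C, measured 8.16 ± 0.70 against 6.78 ± 0.76 CPM (edgeR adjusted p = 0.207). Rgs5, a Gq and Gi regulator of pericytes and the highest gene of the list per kilobase, measured 755 ± 61 against 736 ± 74 CPM.

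Among the CREB factors and cyclic AMP-induced genes, Creb3l2 was the gene whose groups did not overlap. This bZIP factor, held in the membrane of the endoplasmic reticulum, measured 65.1 to 75.1 CPM in multiparous hearts and 59.7 to 64.9 CPM in virgin hearts (68.2 ± 3.6 and 62.4 ± 1.9 CPM, log2 fold change 0.13, SE 0.03, edgeR adjusted p = 0.207). Without overlap stood 0.0337% of all genes tested, 6 of 17813, and 0.0168% in the higher direction. Crtc1, a CREB coactivator, measured 19.5 ± 1.7 against 18.3 ± 0.7 CPM (edgeR adjusted p = 0.671), and Ppargc1a, the highest of the list per kilobase, 160 ± 9 against 157 ± 15 CPM.

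Pde8a was the 1 pathway gene with a lower mean at an unadjusted p under 0.05. This phosphodiesterase of high affinity for cyclic AMP measured 44.7 ± 4.6 CPM in multiparous hearts and 52.3 ± 4.6 CPM in virgin hearts (SD, n = 8 each), with 5 multiparous hearts below every virgin one (log2 fold change −0.23 with an SE of 0.06 and an edgeR adjusted p of 0.248). In the fit by library code, it passed for P-coded against virgin hearts (log2 fold change −0.34 with an SE of 0.07 and an edgeR adjusted p of 0.0402). It was the 1 of 126 pathway genes to do so, where 0.298% of all genes did. In MP-coded hearts it was at −0.12 (SE 0.07, edgeR adjusted p = 0.601), and the difference between the codes did not pass (edgeR adjusted p = 0.383). Pde10a measured 4.85 ± 0.62 against 4.27 ± 0.43 CPM, and Pde3a, the phosphodiesterase that cyclic GMP inhibits and the highest of its list per kilobase, 229 ± 23 against 225 ± 29 CPM.

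No other list had more than 1 gene with an unadjusted p under 0.05. Pkib, an inhibitor peptide of protein kinase A, measured 1.21 ± 0.17 CPM in multiparous hearts and 0.853 ± 0.295 CPM in virgin hearts (adjusted p = 0.49 by edgeR), while Pkia, the abundant inhibitor of muscle, measured 244 ± 18 against 248 ± 23 CPM and the subunit gene Prkar2a 153 ± 8 against 159 ± 12 CPM. Dbh, which makes noradrenaline from dopamine, measured 1.73 ± 0.36 against 1.09 ± 0.44 CPM, above the virgin mean in 8 of 8 multiparous hearts (edgeR adjusted p = 0.352). Th, the rate-limiting enzyme of the same synthesis, was under the filter and reached at most 0.0817 CPM. Ddc, of the same list, had the lower mean in multiparous hearts, 0.607 ± 0.349 against 0.965 ± 0.436 CPM (edgeR adjusted p = 0.698). Of the 9 genes tested in that list, noradrenaline synthesis and clearance, 4 had higher and 5 lower means. The clearance enzyme Maoa measured 7.87 ± 0.54 against 7.27 ± 0.55 CPM (edgeR adjusted p = 0.642).

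The substrates and partners of the kinase showed no called difference. Of the 11 protein kinase A substrates 9 had lower means, as had 9 of the 10 cardiomyocyte markers, where 48.6% of all genes were higher. Pln and Tnni3 are in both lists, so the counts are not independent, and the part of the markers in this was not tested. Among the substrates, phospholamban (Pln), the brake on the calcium pump, measured 5074 ± 258 CPM in multiparous hearts and 5090 ± 311 CPM in virgin hearts, cardiac myosin binding protein C (Mybpc3) 3256 ± 193 against 3493 ± 462 CPM and phospholemman (Fxyd1) 192 ± 13 against 199 ± 16 CPM. Among the anchoring proteins Akap6, which tethers the kinase at the nuclear envelope, measured 441 ± 28 against 472 ± 47 CPM, Akap13 257 ± 24 against 241 ± 22 CPM and Akap1, of mitochondria, 187 ± 16 against 191 ± 18 CPM. Of the other cyclic AMP effectors 6 of 7 had lower means, among them the cyclic AMP-binding Popeye proteins Popdc2 (426 ± 24 against 443 ± 30 CPM) and Popdc3 (20.1 ± 2.0 against 22.2 ± 2.4 CPM). The phosphatases Ppp2ca, Ppp3cb and Ppp1ca measured 194 ± 14, 89.1 ± 5.8 and 132 ± 5 CPM in multiparous hearts and 207 ± 14, 93.5 ± 5.4 and 137 ± 6 CPM in virgin hearts (SD, n = 8 each).

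Upstream of the cyclases, the 9 G protein subunits had log2 fold changes between −0.07 and 0.06. Gnas, which encodes the Gs alpha subunit, measured 745 ± 39 CPM in multiparous hearts and 756 ± 37 CPM in virgin hearts, Gnaq, of the Gq class, 53.0 ± 2.4 against 50.9 ± 2.4 CPM, and Gng5 58.2 ± 4.1 against 61.1 ± 4.3 CPM. Of the other receptor kinases and arrestins, Grk2 measured 69.7 ± 2.7 against 68.8 ± 4.2 CPM, Grk3 20.4 ± 2.0 against 19.8 ± 1.4 CPM and Arrb1 52.0 ± 3.7 against 49.9 ± 5.1 CPM. The receptor genes Adra1d (4.84 ± 1.06 against 4.78 ± 1.04 CPM) and Adra2c (0.297 ± 0.096 against 0.335 ± 0.095 CPM) did not differ past the threshold either, with edgeR adjusted p of 0.992 and 0.881.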

How the data were processed

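RNA was sequenced from 16 left ventricle libraries with a stranded total RNA kit that depletes ribosomal RNA, per the labels' protocols. The deposited files hold raw counts, 1 file for each library; the tools were STAR 2.7.11b and HTSeq 0.11.1 on GRCm38.p6, per the submitters' processing notes, with annotation release and strand setting not given in the sources used here. Rows of reads assigned to no gene, 26.5% to 33.1% per library, were left out. Counts were tested with edgeR 4.0.16 (TMM, filterByExpr, quasi-likelihood F-test on group, Benjamini-Hochberg over 17813 genes at 0.05); SE and 95% intervals come from the F statistic. CPM are TMM-scaled, log2 CPM use a prior count of 2, and exonic lengths and coordinates are from GENCODE M21 (GRCm38), which held 99.53% of the gene identifiers. Marker sums had an exact two-sided permutation test over all 12870 assignments, and relations 100000 random permutations (numpy 2.4.6).

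The members and lists were chosen with earlier results of these data known. All 9 members are named; of each list the 2 genes with the smallest p and the one highest per kilobase are named, and others where a count needed them; some genes that this rule names are not reported here. Most same-numbered libraries did not deviate together (r −0.11 to 0.29 over 8 pairs, 1 above 0.1). The labels do not say whether the numbers pair the samples, and these correlations cannot decide it. The main test used no pairing. Alternatives were DESeq2 1.42.0, limma voom (3.58.1), other factors and filters, a replicate block, a kidney covariate, each code alone and leaving out each library. No 2 libraries of a group agreed within sampling noise (lowest chi-square per degree of freedom 9.79). The labels number the samples without stating that each is a separate animal, and p-values therefore reflect library-to-library spread, which may be partly technical.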

Additional observations from a re-analysis of the deposited data

Results flagged for a closer look

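No library of either group stood apart for any of the 9 members. Over 118 groups of 8 libraries (members, named pathway genes and marker sums), 10 had a highest or lowest library whose gap to the next, as a share of the group's range, exceeded Dixon's 95% critical value, where chance flags about 1 in 20 groups. Among the pathway genes, Adcy1 was highest in multiparous 7 (10.4 CPM, the others 5.03 to 7.41 CPM), Akap1 lowest in multiparous 6 (148.7 CPM, the others 183.5 to 199.6 CPM) and Fxyd1 lowest in multiparous 5 (164 CPM, the others 185.6 to 201.1 CPM). Prkar2a was lowest in virgin 1 (131.1 CPM, the others 157.6 to 169.5 CPM) and Ppargc1a highest in virgin 6 (189.8 CPM, the others 143.5 to 161.5 CPM).

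The other 5 were log2 marker sums of virgin libraries. Virgin 1 was lowest for smooth muscle and pericyte genes (10.3, the others 10.7 to 10.8) and for brain genes (6.41, the others 6.70 to 6.94) and highest for macrophage and leucocyte genes (9.10, the others 8.13 to 8.54). Virgin 7 was highest for atrial myocyte genes (6.72, the others 4.71 to 5.47), and virgin 6 for adipocyte genes (2.49, the others −2.51 to −0.89). Virgin 1 also had the lowest virgin value of 5 of the 9 members.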

How the results depend on the processing

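No alternative called a member, in the comparison with virgin hearts (28 alternatives) or between the codes (11). Adra1a and Prkar1a kept their direction in all 28. With the kidney covariate the log2 fold change turned to −0.0027 for Adrb1, −0.14 for Adra1b and −0.015 for Adcy5. With MP-coded hearts alone it turned to −0.072 for Adra1b, −0.00038 for Adcy5 and 0.0084 for Pde4d, and with P-coded hearts alone to −0.0016 for Adcy6, −0.0021 for Grk5 and 0.058 for Prkaca. Prkaca turned also with upper-quartile factors (0.0014), without factors (0.035) and at a mean of at least 1 CPM (0.0014). Leaving out 1 library gave −0.013 to 0.048 for Adcy5, −0.027 to 0.019 for Prkaca and −0.061 to 0.0027 for Pde4d, and turned no other member; it gave 0.046 to 0.15 for Adra1a, 0.0093 to 0.12 for Adra1b, 0.05 to 0.14 for Grk5 and −0.047 to −0.015 for Prkar1a. Without factors the median of all genes moved to 0.03.

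The count of all genes called was 2, and 0 without factors, with robust dispersion, with the kidney covariate or with MP-coded hearts alone, 56 without a filter, 128 by DESeq2, 33 with the replicate block and 97 with P-coded hearts alone; it was 0 to 55 when 1 library was left out: 55 without virgin 7, 33 without virgin 5, 24 without multiparous 3, 23 without virgin 1, 5 without virgin 2, 1 without multiparous 7 or virgin 6, and 0 without any of the other 9. The replicate block called no member. Of the 8 multiparous libraries, 1 correlated best with its own number. Pathway genes called were 0, 1 with P-coded hearts alone (Pde8a) and 0 to 2 when 1 library was left out (Adcy1 and Prkd1 without virgin 7). Marker lists called were 1, and 1 to 2 when 1 library was left out (atrial myocyte, a sum that is mostly Nppa, without virgin 7, and adipocyte without virgin 6). The cause of these moves was not tested. For the 9 members, with at least 906 counts in every library, counting error is small beside the spread between libraries. This does not extend to the pathway genes of low counts.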
